A study of Mus musculus with 2 samples.

Results

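The 6 genes described here are the osteocalcin genes *Bglap*, *Bglap2* and *Bglap3*, the matrix Gla protein gene *Mgp*, and *Ggcx* and *Vkorc1*, which encode the carboxylase and the reductase of the vitamin K cycle. They were chosen by symbol from the 32285 genes of both count tables, and all 6 have a row in each. The data are single-cell RNA-seq of femoral cells of male C57BL/6J mice aged 7 weeks, in an untreated group and a calcitriol-injected group. The calcitriol group received 2.5 µg/kg of calcitriol, the active form of vitamin D3, on each of 3 days, and bones were taken 24 h after the last injection. The femurs of 6 mice per group were pooled into 1 library, so there is 1 sample per group and no replicate. All intervals below are 95% intervals that cover counting error only, and no p-value can be given. The epiphyses were cut away, the marrow was flushed out and CD45+ cells were removed with magnetic beads before capture.

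A Gla protein carries glutamate residues to which a second carboxyl group has been added after translation, and these residues bind calcium. GGCX, an enzyme of the endoplasmic reticulum, adds the group and oxidises vitamin K in the same step, and VKORC1 reduces vitamin K again so that the cycle can go on. Osteocalcin is the abundant Gla protein of bone matrix and is made by mature osteoblasts, while matrix Gla protein is made by chondrocytes and by smooth muscle cells of arteries and is known for keeping cartilage and vessel walls free of mineral.

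The 3 osteocalcin genes lie in a row on the minus strand of chromosome 3 of GRCm38. *Bglap* (ENSMUSG00000074483) spans 88383501 to 88384464, *Bglap2* (ENSMUSG00000074486) spans 88377736 to 88378699, and *Bglap3* (ENSMUSG00000074489) spans 88368616 to 88372743. The whole row takes 15849 bases. *Mgp* (ENSMUSG00000030218) lies on chromosome 6 at 136872435 to 136875823 on the minus strand, *Ggcx* (ENSMUSG00000053460) on chromosome 6 at 72414308 to 72430712 on the plus strand, and *Vkorc1* (ENSMUSG00000096145) on chromosome 7 at 127893063 to 127895617 on the minus strand. The annotation places *Gm21974* on the same strand across 401 of the 840 exonic bases of *Vkorc1*, but that gene has no row in the count tables.

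The coding sequences of *Bglap* and *Bglap2* are printed because the split of reads between both genes rests on very few bases. Each is 285 bases long, and capitals mark the 4 positions at which they differ.

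Bglap: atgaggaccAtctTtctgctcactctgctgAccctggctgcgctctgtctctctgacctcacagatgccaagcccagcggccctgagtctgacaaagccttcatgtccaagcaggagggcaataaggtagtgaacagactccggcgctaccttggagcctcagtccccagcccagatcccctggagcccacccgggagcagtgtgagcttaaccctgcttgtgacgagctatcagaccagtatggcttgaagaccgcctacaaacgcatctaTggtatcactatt

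Bglap2: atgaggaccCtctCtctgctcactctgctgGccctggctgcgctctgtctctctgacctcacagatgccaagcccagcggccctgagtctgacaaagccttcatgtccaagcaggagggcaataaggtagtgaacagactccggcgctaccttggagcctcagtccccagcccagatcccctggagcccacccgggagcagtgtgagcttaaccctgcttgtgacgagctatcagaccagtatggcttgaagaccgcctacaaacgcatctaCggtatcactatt

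The coding sequences of *Bglap* and *Bglap2* were 98.6% identical. The assay reads the 3′ end of transcripts, and in the last 200 bases of the 440-base *Bglap* transcript only 1 base differed from *Bglap2*, at the 150th base from the 3′ end. Of all stretches of 90 bases in the *Bglap* transcript, 60.4% also occurred in *Bglap2*. A read inside such a stretch matches both genes, so the separate levels of *Bglap* and *Bglap2* are uncertain and their difference depends on where reads fell. *Bglap3* differed from *Bglap* at 13 coding bases, and none of these stretches of *Bglap* occurred in it. Of the stretches of 90 bases in the *Bglap2* transcript, 7.85% also occurred in *Bglap3*, and a read inside one of them matches both of these genes.

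The promoter of *Bglap* is printed because this gene stood at the highest level of the osteocalcin genes. RefSeq's GRCm38.p6 annotation places these 250 bases at chr3:88384467-88384716, minus strand, and capitals mark the core of the RUNX motif (ACCACA) and a TATA box (TATAAA).

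Bglap promoter: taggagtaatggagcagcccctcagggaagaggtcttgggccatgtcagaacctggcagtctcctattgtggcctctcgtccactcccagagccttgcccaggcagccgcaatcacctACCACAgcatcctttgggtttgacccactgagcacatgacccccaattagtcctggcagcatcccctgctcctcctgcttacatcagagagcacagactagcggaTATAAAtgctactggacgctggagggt

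The RUNX core, searched on both strands, began 132 bases before the start and was found in 14.0% of 32851 promoter windows of this length. The TATA box began 27 bases before the start, and 12.4% of the windows held one. A vitamin D response element, searched as AGGTCA repeated in the same direction after a spacer of 3 bases, had 0 matches in this window, as in nearly all windows, of which 0.00609% held one. A match is a description of letters and not of a bound site.

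The untreated library held 70266983 UMIs (unique molecular identifiers, each standing for 1 captured transcript) in 6076 barcodes, and the calcitriol library held 60392557 in 4562 barcodes. Haemoglobin genes took 41.2% of the untreated and 10.6% of the calcitriol UMIs. Only 8 cell barcodes were shared by both libraries. Cells with at least 200 genes were clustered without the 6 genes among the variable genes, so that no cluster was drawn by the genes it is used to describe. Of 24 clusters, 6 were erythroid-like, 2 stayed unnamed and 16 were named from markers that include none of the 6 genes. The epiphyses had been removed, yet clusters with cartilage, articular surface and synovial lining markers were present.

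*Bglap* and *Bglap2* were held by a small set of osteoblast-like cells. The osteoblast-like cluster led by *Ifitm5*, a membrane protein gene of mineralising osteoblasts, had 110 untreated and 119 calcitriol cells. These cells held 79.2% of the *Bglap* UMIs captured without treatment and 68.4% of those captured after calcitriol. In untreated cells *Bglap* stood at 25378 UMIs per 1000000 UMIs of the cluster (CPM) [25171, 25587] in this cluster. It stood at 4878 CPM [4595, 5174] in the osteocyte-like cluster led by *Mepe*, *Dmp1*, *Phex* and *Sost*, and at 3864 CPM [3759, 3971] in the cluster of osteoblast-like cells led by *Tnfrsf11b* and *Ibsp*. The osteoblast-like cluster led by *Postn*, a matrix protein gene of periosteum, had 1298 CPM [1264, 1332]. These 4 levels had intervals that did not overlap. In the osteocyte-like cluster 1 untreated cell held 479 of 1107 UMIs of *Bglap*. Without the top cell of each, the levels were 22853 CPM in the *Ifitm5*, 3190 in the osteocyte-like, 3094 in the *Tnfrsf11b* and 1206 in the *Postn* cluster. The median cells had 9125, 258, 612 and 473 CPM in the same order, so the rank of the osteocyte-like cluster depended on few cells.

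Outside bone-forming cells the level of *Bglap* was lower again. The chondrocyte-like cluster led by *Col10a1*, the collagen of hypertrophic cartilage, had 639 CPM of *Bglap* in the untreated library. The tendon-like cluster led by *Igfbp2* and *Sfrp2* had 143 CPM, the articular surface-like cluster led by *Cytl1* had 78.1 CPM and the chondrocyte-like cluster led by *Matn3* had 49.3 CPM. In smooth muscle-like and Schwann-like cells no UMI of *Bglap* was found in either library, which in the untreated library allows up to 5.29 and 38.4 CPM. Intervals overlapped between neighbours from the *Matn3* cluster down to blood endothelial-like cells.

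*Bglap2* followed nearly the same order, with 16982 CPM in the *Ifitm5* cluster, 2437 in the osteocyte-like, 2165 in the *Tnfrsf11b* and 1622 in the *Postn* cluster of the untreated library. The intervals of the osteocyte-like and *Tnfrsf11b* clusters overlapped. In the osteocyte-like cluster 1 cell held 278 of 553 UMIs of *Bglap2*. Without the top cell of each, the level was 1397 CPM there, 1664 in the *Tnfrsf11b* and 1566 in the *Postn* cluster. *Bglap3* was far lower, at 352 CPM [328, 378] in the *Ifitm5* cluster, where it made up 0.824% of the UMIs of the 3 genes. The upper row of panels in the plot of levels by cluster shows the osteocalcin genes on a log axis.

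**Figure D1:**
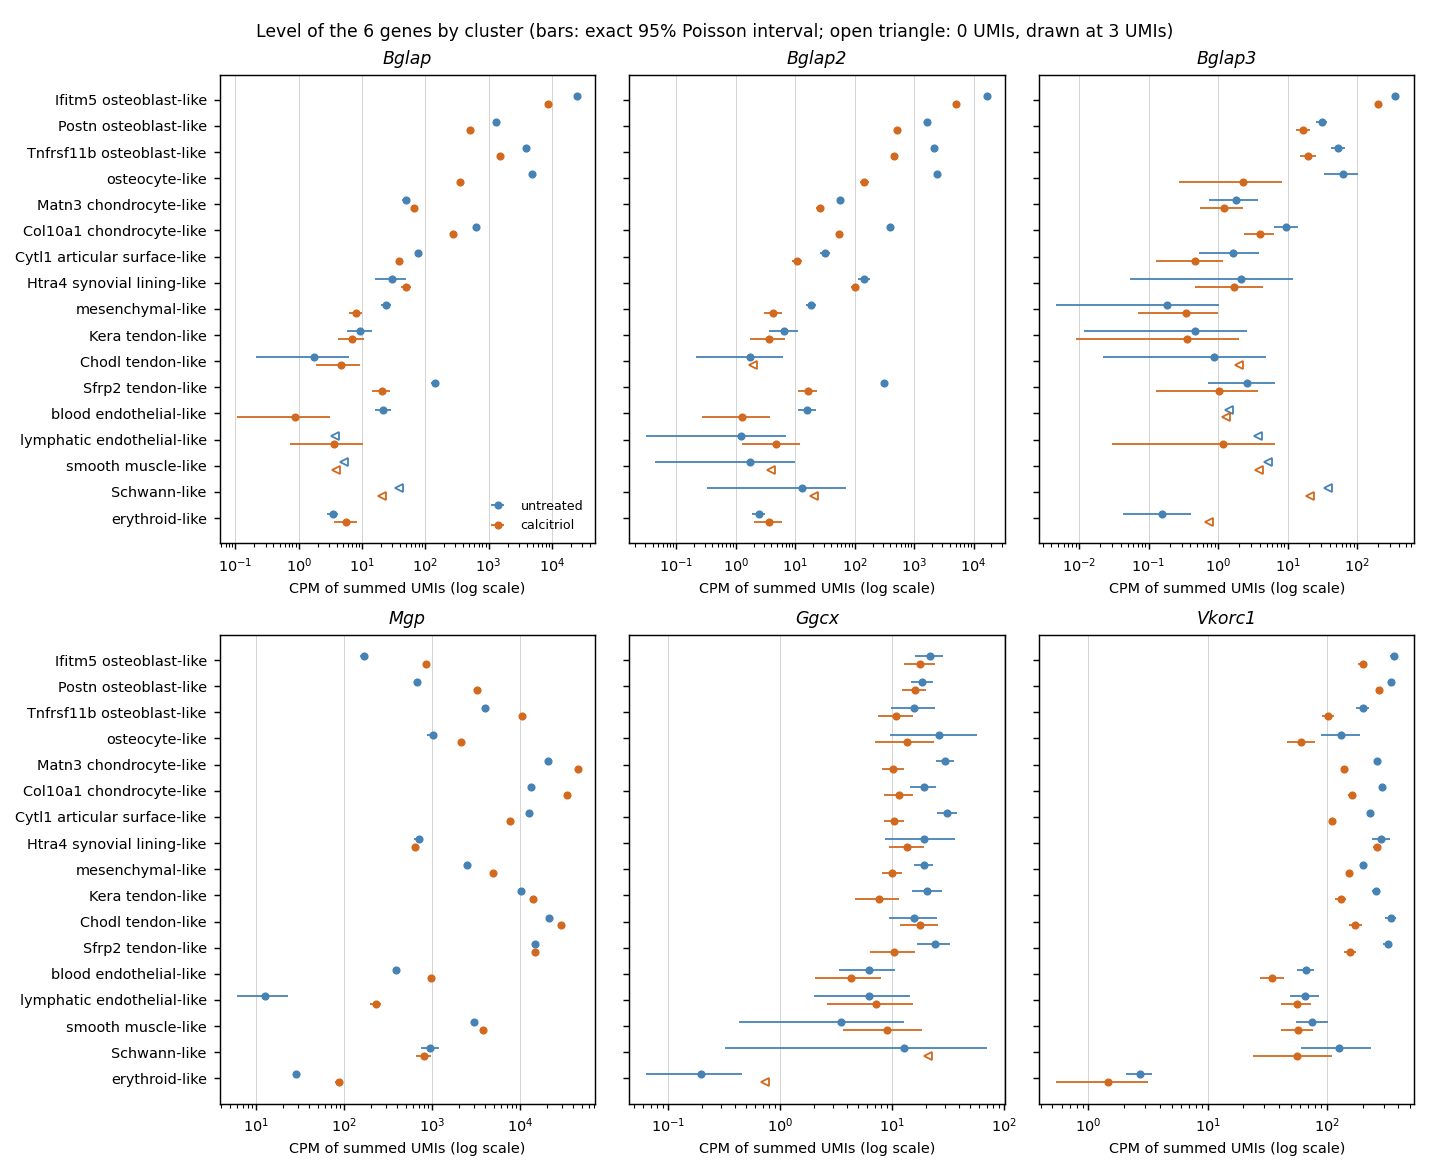
Level of each of the 6 genes (CPM of summed UMIs, log axis) in 16 named clusters and in erythroid-like cells, untreated in blue and calcitriol in orange, with exact 95% Poisson intervals. Open triangles mark clusters with 0 UMIs, drawn at the level of 3 UMIs. *Bglap* spans from 25378 CPM in the untreated *Ifitm5* cluster to 0 UMIs in smooth muscle-like cells, while *Mgp* is highest in chondrocyte-like and tendon-like clusters.

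*Mgp* was distributed over other cells. In the untreated library it was highest in the tendon-like cluster led by *Chodl*, at 21499 CPM, and in the *Matn3* chondrocyte-like cluster, at 20644 CPM. The *Igfbp2* and *Sfrp2* tendon-like cluster followed with 14832 CPM, then the *Col10a1* chondrocyte-like cluster with 13162, the *Cytl1* articular surface-like cluster with 12655 and the tendon-like cluster led by *Kera* with 10354. Smooth muscle-like cells had 3027 CPM and mesenchymal-like cells 2496 CPM. Among osteoblast-like clusters *Mgp* stood at 4025 CPM in the *Tnfrsf11b*, 676 in the *Postn* and 169 in the *Ifitm5* cluster. In the *Tnfrsf11b* cluster 1 cell held 3512 of 5360 UMIs. Without the top cell of each, these clusters had 1422, 634 and 124 CPM. Their median cells had 66.5, 122 and 0 CPM. The cluster with the most *Bglap* therefore had one of the lowest *Mgp* levels, above those of lymphatic endothelial-like cells (12.5 CPM) and erythroid-like cells (28.5 CPM).

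The carboxylation genes varied much less between the 16 named clusters. Erythroid-like cells, which are not among these, had 2.69 CPM of *Vkorc1* and 0.198 CPM of *Ggcx* in the untreated library. *Vkorc1* lay between 66.0 and 365 CPM across the 16 clusters of the untreated library. The *Ifitm5* osteoblast-like cluster had 365 CPM [341, 391]. That interval overlapped those of the *Postn* (347 [330, 365]), *Chodl* (343 [310, 379]) and *Igfbp2* and *Sfrp2* (325 [297, 355]) clusters. With cells thinned to 2000 UMIs the *Ifitm5* cluster had 257 CPM and the *Postn* cluster 333, so no cluster stood out as highest. Levels were lower in lymphatic endothelial-like (66.0), blood endothelial-like (66.7) and smooth muscle-like (75.9) cells. *Ggcx* lay between 3.53 and 31.1 CPM. Its highest levels were 31.1 CPM [25.1, 38.1] in the *Cytl1* and 29.8 CPM [24.6, 35.8] in the *Matn3* cluster, and these intervals overlapped. *Ggcx* therefore stood at a low level in every cluster. In the *Ifitm5* cluster, in which *Bglap* reached its maximum, it had 49 UMIs in 110 cells (21.8 CPM [16.1, 28.8]). That interval overlapped those of the *Cytl1* and *Matn3* clusters.

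The question of the study's design for these genes is how the calcitriol library differs from the untreated library within each cell type. Ratios were formed where both libraries together held at least 50 UMIs, and a gene was called where it differed at least 2-fold. *Bglap* and *Bglap2* were lower in the calcitriol library in most clusters, *Ggcx* and *Vkorc1* had log2 ratios below 0 in every cluster with a ratio, and *Mgp* had log2 ratios above 0 in 12 clusters and below 0 in 4. Over all 100840 pairs of a gene and a named cluster, 3.92% were lower by this margin and 3.53% were higher, while 22.6% had an interval below 0 and 14.1% an interval above 0.

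In the *Ifitm5* cluster *Bglap* was at 25378 CPM in untreated and at 8585 CPM in calcitriol cells, a log2 ratio of -1.56 [-1.59, -1.54]. *Bglap2* was at 16982 and 5031 CPM, a log2 ratio of -1.76 [-1.78, -1.73]. Both were called, beside 2.55% of 6746 genes tested in this cluster that were lower by the same margin, and the median of all genes was -0.11. *Bglap3* was at 352 and 197 CPM, a log2 ratio of -0.84 [-1.01, -0.67], which was below the 2-fold margin. The difference in *Bglap* was seen in the middle of the range of cells as well as in the sum. The median cell had 9125 CPM of *Bglap* without and 2478 CPM with calcitriol, 46.4% and 21.8% of cells exceeded 10000 CPM, and 5 of 110 and 20 of 119 cells had no UMI of it. Without the cell with the most UMIs in each library the log2 ratio was -1.56 again. Across these cells, *Bglap* and *Bglap2* rose and fell together, with Pearson's r of 0.88 in 110 untreated and 0.89 in 119 calcitriol cells on the log scale, a description of cells that share a library and a stretch of sequence.

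**Figure D2:**
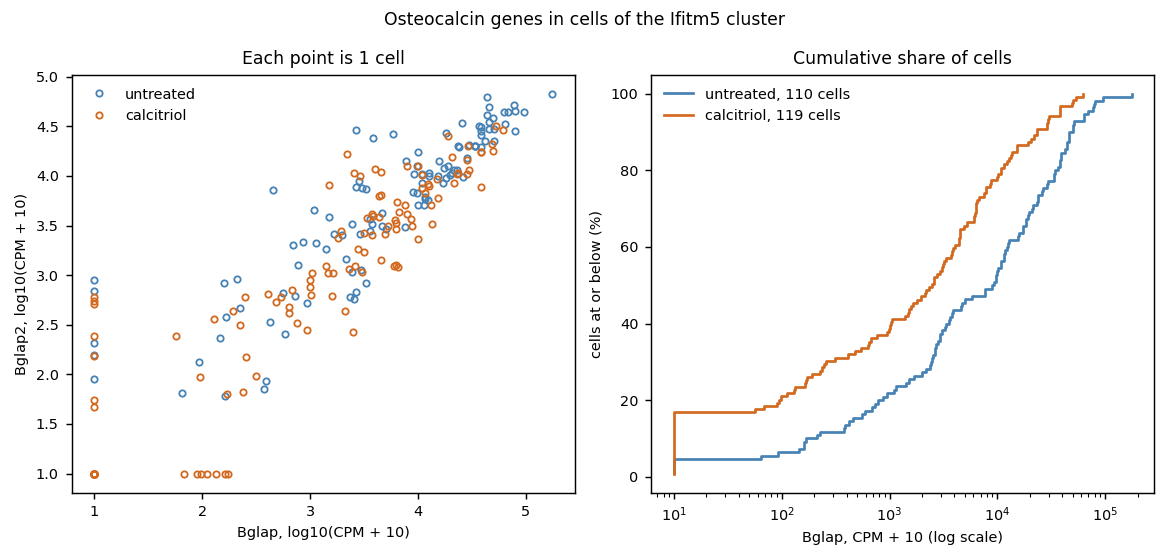
Left, *Bglap* against *Bglap2* in each cell of the *Ifitm5* osteoblast-like cluster, as log10(CPM + 10). Right, the cumulative share of cells (%) against *Bglap* (CPM + 10, log axis); the calcitriol curve of 119 cells lies to the left of the untreated curve of 110 cells over nearly all of its length, with medians of 2478 and 9125 CPM.

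Most osteoblast markers of the *Ifitm5* cluster were lower in the calcitriol library, and most osteocyte markers were higher. *Ifitm5* itself was at 468 and 394 CPM and *Col1a1*, the main bone collagen gene, at 48378 and 32950 CPM, a log2 ratio of -0.55. Also lower were *Col1a2* (log2 ratio -0.51), *Runx2* (-0.26), *Alpl* (-0.84), *Dlx5* (-0.96), *Smpd3* (-0.54) and *Postn* (-0.69). *Spp1*, which encodes osteopontin, was higher in the calcitriol library at 24592 against 89365 CPM, a log2 ratio of 1.86. *Ibsp* (0.58) and *Sp7* (0.42) were higher too. *Mepe*, an osteocyte marker, went from 1.78 CPM without to 205 CPM with calcitriol. The osteocyte markers *Dmp1* (log2 ratio 0.94), *Phex* (1.00), *Irx5* (1.18), *Fbln7* (1.09) and *Cd109* (0.86) were higher as well. *Pdpn* had a log2 ratio of -0.08, and no UMI of *Sost* was found in this cluster. These markers differed between the libraries in both directions, and their part in the lower level of the osteocalcin genes was not tested.

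Both other osteoblast-like clusters had less *Bglap* in the calcitriol library too. In the *Postn* cluster *Bglap* was at 1298 and 519 CPM (log2 ratio -1.32 [-1.39, -1.25]) and *Bglap2* at 1622 and 508 CPM (-1.67 [-1.74, -1.60]). Of 8896 genes tested there, 2.99% were lower by 2-fold or more. In the *Tnfrsf11b* cluster *Bglap* was at 3864 and 1539 CPM (-1.33 [-1.39, -1.27]) and *Bglap2* at 2165 and 465 CPM (-2.22 [-2.31, -2.13]), beside 2.71% of 6010 genes. *Bglap3* was called in this cluster alone, at 53.3 and 19.8 CPM (-1.43 [-1.96, -0.91]), and stood at 30.8 and 16.6 CPM (-0.89 [-1.33, -0.47]) in the *Postn* cluster.

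The osteocyte-like cluster showed the lowest ratio of *Bglap*. It was at 4878 CPM in 24 untreated cells and at 354 CPM in 68 calcitriol cells, a log2 ratio of -3.78 [-3.97, -3.60], and *Bglap2* was at 2437 and 146 CPM (-4.06 [-4.35, -3.78]). Of 2605 genes tested, 6.07% were lower by 2-fold or more. Markers differed between the libraries too. The osteoblast markers *Alpl* (339 and 6.81 CPM, log2 ratio -5.64) and *Col1a1* (67148 and 21491 CPM, -1.64) were lower. *Spp1* (32380 and 146672 CPM, 2.18) and the osteocyte marker *Mepe* (1974 and 5183 CPM, 1.39) were higher. The other osteocyte markers did not move alike. *Dmp1* (0.51) was higher, while *Fbln7* (-1.20), *Pdpn* (-1.43) and *Cd109* (-1.20) were lower. *Phex* (0.18), *Sost* (0.35) and *Irx5* (-0.19) differed less. The part of these markers in the ratio of *Bglap* was not tested. In the untreated library 1 cell held 479 of 1107 UMIs of *Bglap* and 16 of 24 cells had any. In the calcitriol library 16 of 68 cells had any, and 1 cell held 142 of 312 UMIs. The size of this ratio depended on which cells were put in the cluster: with the *Tnfrsf11b* cluster added, as other clusterings did, the log2 ratio was -1.66.

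Over all 10 clusters with at least 50 UMIs, *Bglap* was at least 2-fold lower in the calcitriol library in 8. In the *Col10a1* chondrocyte-like cluster it was at 639 and 274 CPM (log2 ratio -1.22 [-1.33, -1.12]), and *Bglap2* was at 386 and 55.5 CPM (-2.80 [-3.01, -2.59]), beside 4.48% of genes lower by 2-fold or more. One calcitriol cell held 516 of 1158 UMIs of *Bglap* there, and without the top cells its log2 ratio was -1.88 [-2.01, -1.75]. In the *Cytl1* articular surface-like cluster *Bglap* was at 78.1 and 38.2 CPM (-1.03 [-1.28, -0.78]) and *Bglap2* at 31.8 and 10.8 CPM (-1.56 [-1.99, -1.13]). In the *Igfbp2* and *Sfrp2* tendon-like cluster *Bglap* was at 143 and 20.4 CPM (-2.81) and *Bglap2* at 317 and 16.2 CPM (-4.29), beside 4.91% of genes. The ratio of *Bglap* was above 0 in the other 2 clusters. In the *Htra4* synovial lining-like cluster it was at 29.8 and 50.1 CPM (0.75 [-0.05, 1.66]) on 14 and 117 UMIs, while *Bglap2* was at 145 and 99.7 CPM (-0.54 [-0.93, -0.12]). In the *Matn3* chondrocyte-like cluster *Bglap* was at 49.3 and 65.8 CPM (0.42 [0.17, 0.67]), but under 4 alternatives its sign reversed. There *Bglap2* was at 57.3 and 26.1 CPM (-1.13), with 166 of 221 untreated UMIs in 1 cell, and without the top cell of each library its log2 ratio was 0.50. In mesenchymal-like cells, where *Bglap* had a log2 ratio of -1.60 and *Bglap2* one of -2.11, 95 of 129 untreated and 57 of 70 calcitriol UMIs of *Bglap* came from 1 cell each, the sign reversed under 2 alternatives, and 3.13% of genes were lower by 2-fold or more.

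*Mgp* differed in direction between cartilage clusters. In the *Matn3* chondrocyte-like cluster it was at 20644 CPM in 162 untreated cells and 44888 CPM in 349 calcitriol cells, a log2 ratio of 1.12 [1.11, 1.13], and 4.36% of 9107 genes were higher by 2-fold or more. The median cell had 9848 and 27753 CPM. In the *Col10a1* chondrocyte-like cluster *Mgp* was at 13162 and 34143 CPM, a log2 ratio of 1.38 [1.36, 1.39], beside 2.84% of 7564 genes, and the median cell had 2889 and 23583 CPM. In the *Cytl1* articular surface-like cluster it was instead lower, at 12655 CPM in 188 untreated and 7618 CPM in 559 calcitriol cells, a log2 ratio of -0.73 [-0.75, -0.71]. There the median cell had 9850 and 3543 CPM, and the whole cluster's median of all genes was -0.05. No single cell decided these values, since the top cell held at most 9.68% of the UMIs of *Mgp* in any of these clusters and libraries, and without the top cells the log2 ratios were 1.21, 1.45 and -0.74. Over the alternatives run, the log2 ratio kept its sign in the *Matn3* cluster, from 0.98 to 2.001, and in the *Cytl1* cluster, from -0.80 to -0.33. The markers of these clusters also differed between the libraries. *Matn3* was at 2151 and 1044 CPM in its own cluster, *Col10a1* at 14527 and 9265 CPM and *Cytl1* at 13185 and 25249 CPM. Summed chondrocyte markers were lower in the calcitriol library in each of these clusters, at 76545 and 48267 CPM in the *Matn3* cluster. The part of these markers in the *Mgp* ratios and the difference between the clusters were not tested.

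In osteoblast-like cells *Mgp* was higher in the calcitriol library, but single cells carried much of the sums. In the *Postn* cluster it was at 676 and 3205 CPM (log2 ratio 2.25 [2.19, 2.30]), beside 3.46% of genes higher by 2-fold or more. One calcitriol cell held 3802 of the 13895 UMIs, and without the top cells the log2 ratio was 1.89 [1.83, 1.95]. The median cell had 122 and 393 CPM. In the *Ifitm5* cluster the log2 ratio of 2.34 [2.19, 2.51] became 1.11 [0.91, 1.32] without 1 calcitriol cell that held 1427 of 2070 UMIs and 1 untreated cell that held 105 of 381, and 2.74% of genes were higher by 2-fold or more. In the *Tnfrsf11b* cluster the shift was upward, from 1.40 to 2.73 [2.66, 2.80], since 1 untreated cell held 3512 of 5360 UMIs, and 4.13% of genes there were higher by 2-fold or more. That cluster also held chondrocyte markers, which summed to 40732 CPM in untreated and 29772.5 CPM in calcitriol cells. The same sums were 3244 and 1493 CPM in the *Ifitm5* and 1196 and 1673 CPM in the *Postn* cluster. In the osteocyte-like cluster 1 untreated cell held 212 of 229 UMIs of *Mgp*. There the log2 ratio of *Mgp* went from 1.08 to 3.94 [3.26, 4.73]. It was below 0 under 3 alternatives that changed which cells the cluster held, and 7.14% of genes in the cluster were higher by 2-fold or more. The value of the *Postn* cluster was -1.04 without integration of the libraries, where that cluster had 9 calcitriol cells. *Mgp* was found in 31.8% and 58.0% of cells of the *Ifitm5* cluster and in 68.5% and 85.3% of cells of the *Postn* cluster. In erythroid-like cells, described below as a check for free RNA, it was found in 16.6% and 39.3%. The part of free RNA in the shares of the osteoblast-like clusters was not tested.

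The other clusters ranged widely in *Mgp*. Mesenchymal-like cells stood at 2496 and 4855 CPM (0.96 [0.93, 0.99]), the *Chodl* and *Kera* tendon-like clusters had log2 ratios of 0.46 and 0.44, and the *Igfbp2* and *Sfrp2* tendon-like cluster was at 14832 and 14608 CPM (-0.02 [-0.05, 0.00]). Without the top cells this last value was -0.10 [-0.13, -0.07]. Smooth muscle-like cells were at 3027 and 3794 CPM (0.33 [0.24, 0.41]), and the mean over the cells' own CPM gave -0.052. Blood endothelial-like cells were at 390 and 969 CPM (1.31 [1.19, 1.43]), with 966 of 2243 calcitriol UMIs in 1 cell, and 1.01 without the top cells, and 1.7% of genes were higher by 2-fold or more. The *Htra4* synovial lining-like cluster, at 699.7 and 637 CPM (-0.14 [-0.31, 0.04]), and Schwann-like cells, at 947 and 800 CPM (-0.24 [-0.68, 0.20]), had ratios below 0 with intervals that included 0, and 1 untreated cell held 189 of 329 UMIs in the former and 49 of 74 in the latter. Without the top cells the *Htra4* value was 0.36 [0.11, 0.63]. Of all 16 clusters *Mgp* was at least 2-fold higher in 8, and its interval lay below 0 in the *Cytl1* cluster alone.

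*Vkorc1* was lower in the calcitriol library in all 15 clusters with at least 50 UMIs. Its log2 ratios ran from -1.11 to -0.12, with a median of -0.91, and in 12 clusters the interval lay below 0. In the *Ifitm5* cluster it was at 365 and 200 CPM (-0.87 [-1.03, -0.70]), and the median cell had 327 and 117 CPM. In the *Cytl1* cluster it was at 233 and 111 CPM (-1.06 [-1.21, -0.92]), called beside 3.5% of 8854 genes that were lower by 2-fold or more, and in the *Htra4* synovial lining-like cluster at 287 and 265 CPM (-0.12 [-0.39, 0.16]). The median of all genes in the *Htra4* cluster was -0.28, and 62.6% of genes there had a lower ratio than *Vkorc1*. Of the 15 ratios of *Vkorc1*, 3 reached the 2-fold margin, those beside the *Cytl1* cluster being of osteocyte-like cells (-1.11 [-1.78, -0.41], 30 and 54 UMIs) and of the *Igfbp2* and *Sfrp2* tendon-like cluster (-1.06 [-1.27, -0.85]). The *Chodl* and *Kera* tendon-like, *Tnfrsf11b*, blood endothelial-like, *Matn3* and *Col10a1* clusters lay between -0.98 and -0.84. Mesenchymal-like cells (-0.39 [-0.50, -0.27]) and the *Postn* cluster (-0.34 [-0.45, -0.23]) had smaller differences, and in smooth muscle-like (-0.41 [-1.05, 0.23]) and lymphatic endothelial-like cells (-0.24 [-0.84, 0.35]) the interval included 0.

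*Ggcx* was lower in all 9 clusters with at least 50 UMIs, and in 6 of them the interval lay below 0. It was at least 2-fold lower in 4. *Ggcx* was at 31.1 and 10.5 CPM in the *Cytl1* cluster (-1.56 [-1.99, -1.13], 94 and 91 UMIs). In the *Matn3* cluster it was at 29.8 and 10.3 CPM (-1.54 [-1.97, -1.10], 115 and 76 UMIs), beside 4.24% of genes lower by 2-fold or more. The *Kera* tendon-like cluster, at 20.6 and 7.59 CPM (-1.44 [-2.27, -0.66], 44 and 21 UMIs), and the *Igfbp2* and *Sfrp2* tendon-like cluster, at 23.997 and 10.457 CPM (-1.20 [-2.06, -0.38], 37 and 20 UMIs), were the other 2. Of all genes tested, 3.5% in the *Cytl1*, 6.79% in the *Kera* and 4.91% in the *Igfbp2* and *Sfrp2* cluster were lower by 2-fold or more. Mesenchymal-like cells had a log2 ratio of -0.93 [-1.35, -0.50] and the *Col10a1* cluster one of -0.73 [-1.31, -0.15]. With cells thinned to 2000 UMIs the value of the *Matn3* cluster was -0.52. In the *Ifitm5* cluster, with 49 and 43 UMIs, a difference was not detectable at this depth (-0.29 [-0.91, 0.33]), nor was it in the *Postn* (-0.24 [-0.72, 0.24]) and *Tnfrsf11b* (-0.53 [-1.37, 0.34]) clusters.

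**Figure D3:**
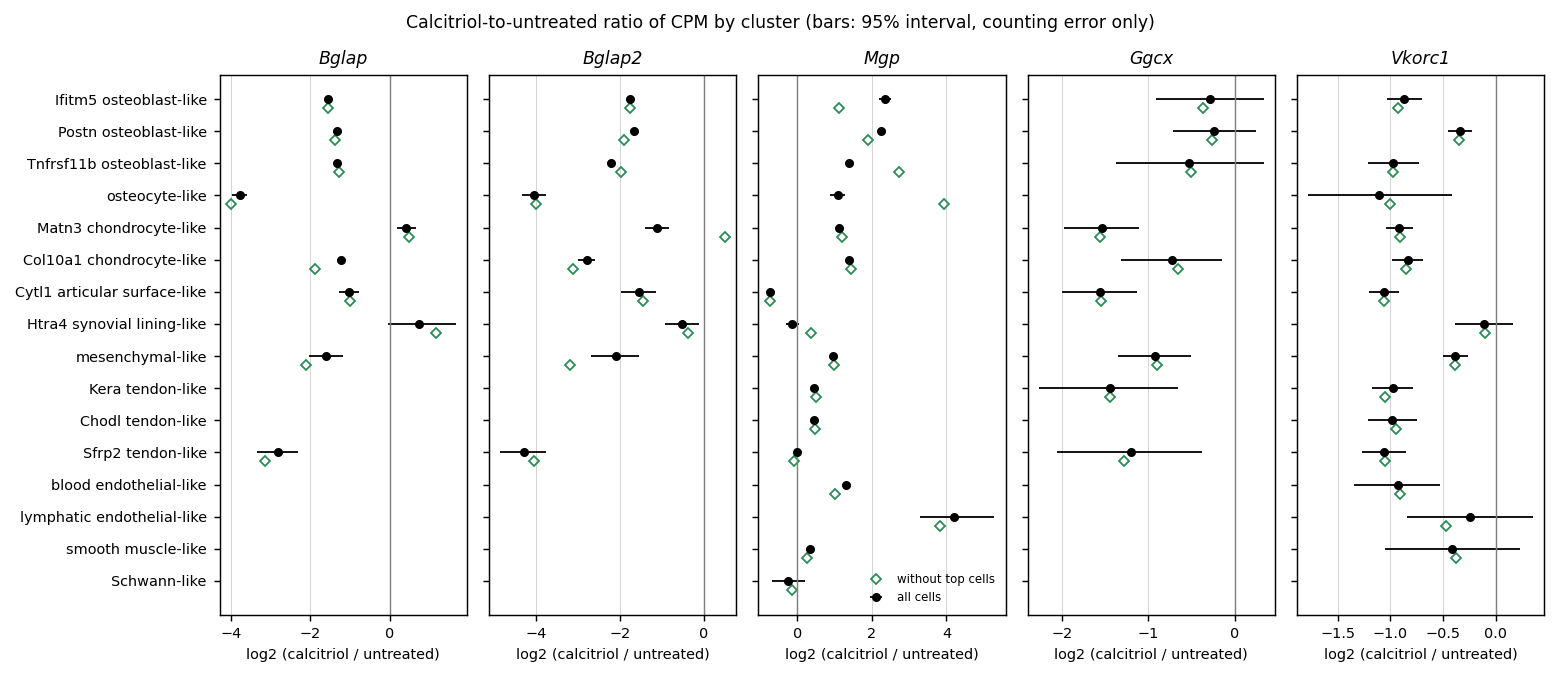
Log2 ratio of calcitriol to untreated CPM in each cluster with at least 50 UMIs, with 95% intervals (counting error only); green diamonds leave out the cell with the most UMIs of the gene in each library. *Bglap* and *Bglap2* lie left of 0 in most clusters, *Mgp* lies right of 0 in 12 of 16 and left of it at -0.73 in the *Cytl1* cluster, and *Vkorc1* lies left of 0 in 15 of 15. *Bglap3* is not drawn.

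The share of *Bglap2* in the UMIs of *Bglap* and *Bglap2* differed between clusters. In the untreated library it was 40.1% [39.8, 40.4] in the *Ifitm5* cluster, 35.9% [34.9, 37.0] in the *Tnfrsf11b* cluster and 33.3% [31.0, 35.6] in osteocyte-like cells. It was higher in the *Postn* cluster, at 55.5% [54.7, 56.4], and in the *Igfbp2* and *Sfrp2* tendon-like cluster, at 68.9% [65.3, 72.3]. In the calcitriol library it was lower in each of the 10 clusters drawn, for example 36.9% [36.4, 37.5] in the *Ifitm5*, 49.5% [48.0, 51.0] in the *Postn* and 23.2% [22.1, 24.3] in the *Tnfrsf11b* cluster. In the *Matn3* cluster it was 53.8% and 28.4%, but 1 untreated cell held 166 of 221 UMIs of *Bglap2*. Without the top cells the log2 ratios of *Bglap* and *Bglap2* there were 0.48 and 0.50, so the lower share in that cluster rested on 1 cell. One base near the 3′ end separates these transcripts, the share of reads that matched both genes is not known here, and the part of read position in these differences was not tested.

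**Figure D4:**
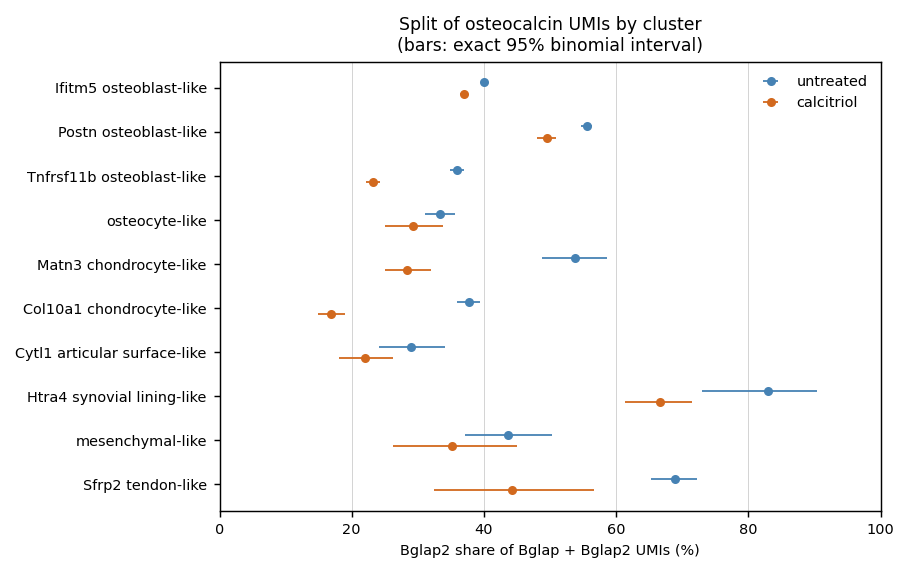
Share of *Bglap2* in the UMIs of *Bglap* and *Bglap2* (%) in 10 clusters, untreated in blue and calcitriol in orange, with exact 95% binomial intervals. The share lies between 16.9% in the calcitriol *Col10a1* cluster and 82.9% in the untreated *Htra4* cluster, and each orange point lies left of its blue point. The intervals of both libraries overlap in the osteocyte-like, *Cytl1* and mesenchymal-like clusters. In the untreated *Matn3* cluster 1 cell held 166 of 221 UMIs of *Bglap2*.

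Erythroid-like cells served as a check for free RNA, since they should make no osteocalcin or matrix Gla protein. The untreated library had 2307 such cells with a median of 10416 UMIs, and the calcitriol library had 433 with a median of 9869. *Bglap* was found in 2.64% [2.03, 3.38] and 1.15% [0.376, 2.67] of them, at 0.0377 and 0.0531 UMIs per cell. One cell held 26 of 87 untreated and another 19 of 23 calcitriol UMIs, and without these cells the levels were 0.0265 and 0.00926 UMIs per cell. In the *Ifitm5* cluster, at median depths of 17532 and 16046 UMIs, it was found in 95.5% and 83.2% of cells, at 519 and 174 UMIs per cell. The erythroid level was 0.00727% and 0.0306% of the osteoblast level, or 0.00510% and 0.00533% without the top erythroid cell of each library. For *Bglap* the levels of the *Chodl* tendon-like, lymphatic endothelial-like, smooth muscle-like and Schwann-like clusters had intervals that did not lie above that of the erythroid level in either library, with or without those cells.

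*Mgp* had the most free RNA of the 6 genes. It was found in 16.6% [15.1, 18.1] of untreated and 39.3% [34.6, 44.0] of calcitriol erythroid-like cells, at 0.312 [0.289, 0.335] and 0.824 [0.741, 0.915] UMIs per cell, or 0.214 and 0.569 without the cells that held 225 of 719 and 111 of 357 UMIs. Barcodes with fewer than 200 genes, 1443 untreated and 642 calcitriol, held 0.161 and 0.732 UMIs of *Mgp* each. In cells thinned to 2000 UMIs, which left out 98 untreated and 34 calcitriol erythroid-like cells, the shares were 4.21% and 11.3%. These amounts are small beside the 491 and 950 UMIs per cell of the *Matn3* cluster, and taking them off left that log2 ratio at 1.12. They are not small in lymphatic endothelial-like cells, where *Mgp* was at 0.270 UMIs per cell in the untreated library, close to the erythroid level with and without the top cell, and at 5.22 in the calcitriol library, with 75 of 193 UMIs in 1 cell; its log2 ratio of 4.20 [3.29, 5.29] is therefore set against a level at background, and 3.98% of genes in these cells were higher by 2-fold or more. *Vkorc1* had 0.0295 and 0.0139 UMIs per erythroid-like cell, and 0.00485 and 0.00623 per barcode with fewer than 200 genes. Whether erythroid-like cells express *Vkorc1* and *Ggcx* themselves was not tested, so their counts of these genes need not be free RNA. *Ggcx* had 5 UMIs in 2307 untreated cells and none in 433 calcitriol cells, which allows a share of cells with a UMI of up to 0.693%.

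**Figure D5:**
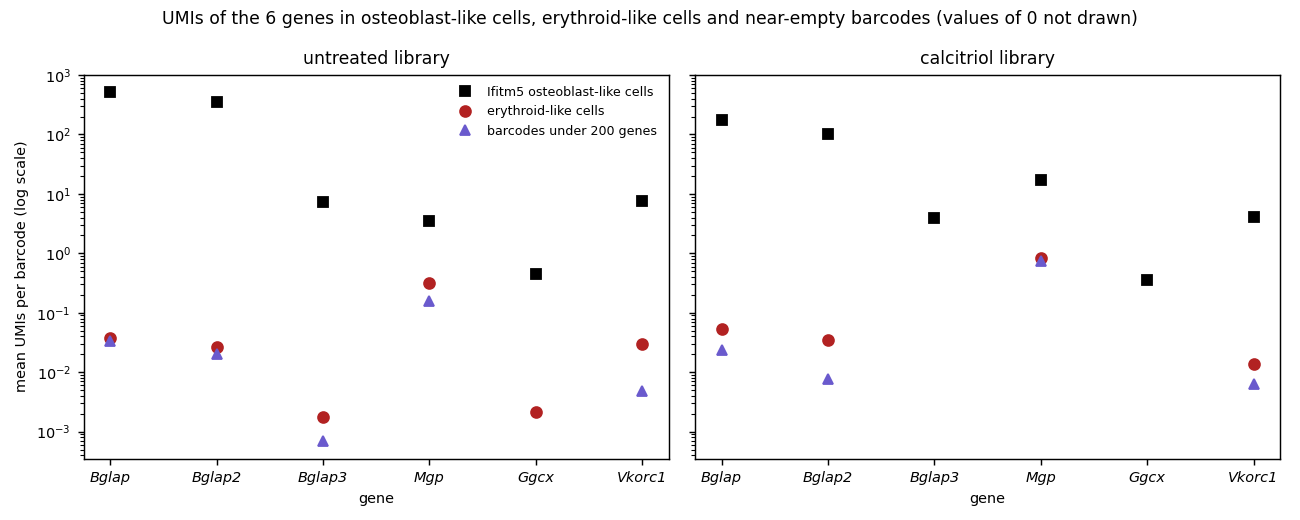
Mean UMIs per barcode (log axis) of each gene in *Ifitm5* osteoblast-like cells (squares), erythroid-like cells (circles) and barcodes with fewer than 200 genes (triangles) in the untreated library (left) and the calcitriol library (right). For *Bglap* the squares stand at 519 and 174 UMIs and the circles at 0.0377 and 0.0531, while for *Mgp* the circles rise to 0.312 and 0.824.

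The rest of the pathway was described with 31 genes in 3 lists. Of 13 other Gla protein genes, *Ucma*, a Gla protein gene of cartilage, and *Gas6*, which encodes the ligand of the TAM receptors, reached the highest levels. *Ucma* stood at 1410 CPM in the untreated *Matn3* cluster and at 876 CPM in the calcitriol one (log2 ratio -0.69), and was higher in the *Tnfrsf11b* cluster (107 and 223 CPM, 1.06 [0.80, 1.33]). *Gas6* was higher in the calcitriol library in the *Postn* cluster (106 and 258 CPM, log2 ratio 1.29 [1.13, 1.45]), in the *Tnfrsf11b* cluster (18.8 and 57.3 CPM, 1.61) and in the *Igfbp2* and *Sfrp2* tendon-like cluster (425 and 1063 CPM, 1.32), where 3.73% of all genes were higher by 2-fold or more. It was lower in blood endothelial-like cells (181 and 86.4 CPM, -1.07), where 2.89% were lower. Clotting factor genes *F2*, *F7*, *F9* and *F10* had 10, 40, 10 and 17 UMIs in both libraries together. Over the 45 pairs of a listed Gla protein gene and a cluster with at least 50 UMIs, 4 were at least 2-fold higher and 1 was lower. Over all 100840 pairs of a gene and a named cluster, 3.53% were higher and 3.92% were lower by this margin.

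Among 8 genes of vitamin K metabolism and carboxylation, 0 of 80 such pairs were at least 2-fold higher in the calcitriol library and 7 were lower. The shares over all pairs of a gene and a named cluster were 3.53% higher and 3.92% lower. *Txndc5*, a protein disulfide isomerase gene, made up 5 of the 7, with its lowest log2 ratio of -1.32 [-1.59, -1.05] in the *Kera* tendon-like cluster (156 and 62.5 CPM), beside 6.79% of genes lower by 2-fold or more. *Calu*, which encodes calumenin, a calcium-binding protein of the secretory pathway, made up the other 2. *P4hb*, the gene of another protein disulfide isomerase, reached the highest level of this list, at 651 CPM in the untreated *Matn3* cluster. *Vkorc1l1*, the paralog of *Vkorc1*, was not called in any of 12 clusters, with log2 ratios from -0.79 to -0.05. Among 10 receptors and partners, of which 9 had a row under the listed symbol, 7 of 67 pairs were at least 2-fold higher and 2 were lower. These counts too stand beside 3.53% and 3.92% of all pairs. The proposed osteocalcin receptor genes *Gprc6a* and *Gpr158* had 0 UMIs in both libraries. *Mertk*, a TAM receptor gene, was at least 2-fold higher in 3 clusters, with its highest log2 ratio of 1.33 [0.36, 2.39] in the *Kera* tendon-like cluster, beside 3.86% of genes that were higher. *Axl*, another TAM receptor gene, was higher in the *Postn* (24.9 and 54.0 CPM, 1.12) and *Matn3* (7.26 and 15.8 CPM, 1.13) clusters. *Bmp4*, a bone morphogenetic protein gene, was higher in the *Postn* cluster (5.25 and 24.5 CPM, 2.22) and in blood endothelial-like cells (44.0 and 125 CPM, 1.504) and lower in osteocyte-like cells (137 and 55.6 CPM, -1.30). The other lower pair was *Acvrl1*, a receptor gene of that family, in the *Igfbp2* and *Sfrp2* tendon-like cluster (27.89 and 10.98 CPM, -1.34), and *Bmp2* had the highest level of the list, at 1239 CPM in calcitriol osteocyte-like cells.

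Over 45 levels, each of 1 cluster in 1 library, the genes most like *Bglap* among 9779 were *Bglap2* (Pearson's r of log2(CPM + 10) 0.98), *Bglap3* (0.91), *Rab27b* (0.89), *Bmp8a* (0.86) and *Hpgd* (0.86). Those most like *Mgp* were *Hoxc8* (0.88), *Ccn2* (0.88), *Loxl3* (0.87), *Fjx1* (0.87) and *Emb* (0.87). *Bglap* and *Mgp* themselves had an r of 0.28. The points share libraries, and these values are descriptions. Levels of the 6 erythroid-like clusters, in which *Bglap* and *Mgp* were both low, are among the 45, and r without them was not computed. Of the 5 genes most like *Mgp*, 1 to 3 were found again in 4 other clusterings, and of those most like *Bglap*, 3 or 4.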

How the data were processed

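The members and gene lists were chosen with earlier results of these data known. Single-cell RNA-seq (10x Genomics, 3′ assay) was made from 2 libraries, each of the pooled femurs of 6 mice. The deposited values are raw UMI counts per gene and barcode, which the authors made with Cell Ranger 4.0.0 on mm10; Seurat 3.2.2 is also named in the submitters' processing notes. The annotation release and the handling of reads that match several genes are not given in the sources used here.

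Barcodes with at least 200 genes were taken, and in each library 1 cluster past all 3 limits (over 10% mitochondrial UMIs, under 1000 genes, under 2000 UMIs) was left out, which left 4427 untreated and 3699 calcitriol cells. These were integrated and clustered in Seurat 5.3.0 (R 4.3.3) with 2000 variable genes, none of them a member, 30 principal components and resolution 0.8. A cluster was named "-like" where at least 3 markers of a class were in 10% of its cells and 2-fold above the rest, more than for any other class. A class with at least 3 such markers gave the name instead if it led, with at least 2, among the 10 genes most above the rest. This second rule named the osteocyte-like cluster. It had 5 osteocyte and 5 osteoblast markers, with 4 and 1 of them among those 10 genes. A tie between other classes left a cluster unnamed. The key genes that tell clusters of 1 class apart, and the rule for ties, were chosen after the clusters were seen. Doublets were kept, and a score against simulated doublets, run as an alternative in scikit-learn 1.9.0, marked 172 untreated and 123 calcitriol barcodes.

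UMIs were summed over the cells of a cluster in each library and divided by the cluster's total (CPM), with exact Poisson intervals. Ratios have exact conditional binomial intervals and shares have Clopper-Pearson intervals at the 95% level, computed with Python 3.11.15 and scipy 1.17.1. The ratio intervals were run on simulated Poisson counts, the model that they assume. That run cannot show how they behave where a few cells hold most UMIs. UMIs of cells of 1 library are not replicates. A count of 0 was given a limit of 3 counts over the cells concerned, in place of the bound of its interval. The text names the 6 members, with their ratios in clusters of at least 50 UMIs, listed genes at the highest level of their list or at least 2-fold different, and the 5 genes most like *Bglap* and *Mgp*. The low clotting factor counts, *Vkorc1l1* and the osteocalcin receptor genes were named after their values were seen. In all, 13 planned and 2 later alternatives were run for the ratios. Sequences and positions came from GRCm38 annotation and RefSeq, which gave a promoter for 4 of 6 members.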

Additional observations from a re-analysis of the deposited data

Results flagged for a closer look

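The log2 ratio of calcitriol to untreated *Mgp* was -0.73 in the *Cytl1* articular surface-like cluster and 1.12 in the *Matn3* chondrocyte-like cluster, opposite signs in clusters that share cartilage genes. The log2 ratio of *Bglap* was 0.42 in the *Matn3* chondrocyte-like cluster and -1.56 in the *Ifitm5* osteoblast-like cluster. With 1 library per group neither difference was tested. Barcodes with fewer than 200 genes, which no comparison uses, held 0.732 UMIs of *Mgp* per barcode in the calcitriol library and 0.161 in the untreated library.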

How the results depend on the processing

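No paired analysis was possible because each group is 1 library. The 6 main ratios kept their sign under every alternative that gave a value, and of 84 such values 39 stayed within the main 95% interval and 45 did not. Values below are log2 ratios of calcitriol to untreated, and the causes of their shifts were not tested. *Bglap* in the *Ifitm5* cluster (-1.56) was -1.50 with the members among the variable genes, -1.48 at resolution 0.5 and with 20 principal components, -1.92 without integration, -1.69 where any limit removed a cluster, -1.59 without marked doublets, -1.63 with cells assigned by their own markers, -1.31 when thinned, -1.32 as the mean of cells and -1.61 with totals without the 6 members. *Bglap* in osteocyte-like cells (-3.78) was -1.22, -1.26, -1.88, -1.71, -2.07 and -1.67 with, in turn, the members variable, resolution 0.5, 20 components, no integration, any limit and own markers; these put more cells in the cluster or other cells. It was -4.01 without the top cells and -1.66 with the *Tnfrsf11b* cluster added, both chosen after seeing the data.

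*Mgp* in the *Matn3* cluster (1.12) was 1.97 with the members variable, 2.001 at resolution 0.5, 1.66 at 1.2, 1.67 with 20 components, 1.51 without integration, 1.68 with any limit, 1.16 without doublets, 0.98 with own markers, thinned or as the mean of cells, 1.09 without haemoglobin and mitochondrial genes, 1.16 without the members in the total and 1.21 without the top cells. In the *Cytl1* cluster (-0.73) it was, in the same order to any limit, -0.39, -0.54, -0.57, -0.60, -0.33 and -0.41, then -0.80 thinned or as the mean of cells and -0.76 without haemoglobin and mitochondrial genes; assignment by own markers gave no value for it. *Vkorc1* in the *Ifitm5* cluster (-0.87) was -0.51 at resolution 0.5, -0.53 with 20 components, -0.62 without integration and -1.14 as the mean of cells. *Ggcx* in the *Matn3* cluster (-1.54) was -0.52 when thinned.

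Of 57 other ratios, which gave 700 values, 18 values reversed, counted only where the main interval excluded 0. Changes of sign in ratios whose main interval included 0 are not among them. One such ratio was *Mgp* in the *Htra4* cluster, at -0.14 and at 0.36 without the top cells. *Bglap* in the *Matn3* cluster (0.42) was -1.30 with the members variable, -1.31 at resolution 0.5, -0.86 without integration and -1.02 with own markers. *Bglap2* there (-1.13) was 1.42 at resolution 1.2, 1.10 with 20 components, 1.47 with any limit and 0.50 without the top cells. In mesenchymal-like cells *Bglap* (-1.60) was 2.86 at resolution 1.2 and 1.10 with any limit, and *Bglap2* (-2.11) was 3.02 and 0.84. *Mgp* in osteocyte-like cells (1.08) was -0.19 with the members variable, -0.26 at resolution 0.5 and -0.61 with own markers, in the *Postn* cluster (2.25) it was -1.04 without integration, and in smooth muscle-like cells (0.33) it was -0.046 thinned and -0.052 as the mean of cells. The count of listed pairs at least 2-fold higher went from 11 to 18 at 20 UMIs and 32 with no filter, and that of lower pairs from 10 to 15 and 41. Depth limits *Ggcx* and *Bglap3* most, and the 3′ reads limit the split of *Bglap* and *Bglap2*.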
